A study of Mus musculus with 18 samples.

Results

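Bone marrow derived macrophages of Nrf2-/- mice were given heme before LPS, and their transcripts were compared with those of Nrf2-/- macrophages given LPS without heme. The comparison used 9 of the 18 arrays of the series, chosen by their labels alone: 5 arrays of cells that received heme-albumin at 200 µM for 4 h and then LPS for 4 h, lettered a to e, and 4 arrays of cells that received LPS for 4 h, lettered a to d. All 9 samples therefore share the Nrf2-/- genotype and LPS, the endotoxin of Gram-negative bacteria, at 10 ng/ml, and the knockout has no group without LPS. The other 9 arrays, used here for comparison, were of Nrf2+/+ (wild-type) macrophages, 3 each with albumin for 4 h, LPS for 4 h, and the same heme-albumin followed by LPS. Marrow came from mice aged 8 to 10 weeks and was cultured for 7 days in M-CSF at 10 ng/ml, the growth factor that turns marrow cells into macrophages. Each array set the RNA of 1 sample against RNA of untreated macrophages, and the series describes the samples of a condition as independent biological replicates. The strain, the deleted allele, the genotype of the reference, pooling of animals and whether the LPS arrays had albumin before LPS were not stated in the labels.

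Heme is the iron-bearing group of hemoglobin, and macrophages take it up when they clear damaged red cells. Heme oxygenase 1 opens the ring and releases iron, which ferritin stores and ferroportin exports. NRF2, the protein encoded by Nfe2l2, is held back by KEAP1 until oxidants or electrophiles release it, after which it pairs with small MAF proteins on antioxidant response elements and switches on genes for glutathione, thioredoxin and NADPH. BACH1, a repressor that heme itself removes from DNA, sits on many of the same elements. LPS acts through TLR4 to switch on cytokine genes through NF-kB and interferon-response genes through interferon beta.

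Values are log2 ratios of the sample to the reference, so that a measured ratio of 0 means the same level as in the reference. A listed value of exactly 0 may not be such a measurement. A change is the mean ratio with heme and LPS minus the mean ratio with LPS, given with its standard error (SE). Nfe2l2, the deleted gene, was listed at exactly 0 on each of the 9 knockout arrays. The sources used here do not say whether its single probe lies within the deleted part or what an exact 0 stands for. Between 20.9% and 48.8% of features were at exactly 0 on a knockout array. The share was 44.3%, 34.5%, 35.4% and 23.6% on LPS arrays a to d. On heme arrays a to e it was 48.8%, 32.1%, 35.8%, 23.9% and 20.9%, so it went with the letter in both groups. The correlation across genes between arrays of a group ran from 0.83 to 0.895 among the LPS arrays and from 0.669 to 0.863 among the heme arrays. The 17 macrophage markers had array medians from -0.12 to 0.00 with LPS and from 0.00 to 0.13 with heme before LPS, close to the reference macrophages. Ratios give no absolute level, and in RNA of a whole culture fewer cells of a type and less RNA per cell cannot be told apart.

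The main fit did not pair the arrays by replicate letter. In the absence of NRF2, heme before LPS raised 922 genes (4.1% of the 22485 tested) and lowered 601 (2.67%) at an adjusted p under 0.05. The counts of each gene list below are to be read against these shares. The change was over 1 log2 unit, that is 2-fold, for 294 of the raised and 278 of the lowered genes, and over 3 log2 units for 9 and 13. Among these called genes, picked on the same values, the arrays of the 2 groups did not overlap for 774 of the raised and 481 of the lowered. The share without overlap over all genes is not given here, so these counts add no support to the calls. The median change over all genes was 0. The share of negative changes over all genes is not given here, so counts of signs in a gene list below have no such share beside them. The largest rises were those of the malic enzyme Me1, Hmox1, Srxn1, Dnmt3l and Osgin1, at 4.15 ± 0.39, 4.01 ± 0.28, 3.95 ± 0.31, 3.93 ± 0.22 and 3.54 ± 0.33 log2 units. The largest falls among genes whose groups did not overlap were those of the germ-line RNA helicase Ddx4 (-4.39 ± 0.32), Ifit1bl1 (-4.03 ± 0.80), Gbp11 (-3.83 ± 0.71) and Fst (-3.70 ± 0.75). Without LPS array a the counts were 606 higher and 345 lower, and without LPS array d 362 were lower. With the replicate letter as a block over the 9 knockout arrays, in which heme array e has no partner and adds nothing to the contrast, 170 genes were called higher and 139 lower. Of the 130 genes named here that were called, 68 lost the call in a fit of the 9 knockout arrays without a block. With the letter as a block in the knockout and the spread of all 18 arrays, 17 lost it. With the block over the 9 knockout arrays alone, 101 lost the call. Those that kept it were Hmox1, Spic, Fth1, Fgl2, Dnmt3l, Osgin1, Mllt11, Ddx4, Tnfsf18, Abcg1, Slc48a1, Mgst1, Pgd, Bag3, H2-M3, Ctss, Irf8, P4ha2, Casp8, Ftl1, Abcc1, Hmox2, Gbp8, Slc1a4, Pdk1, P4ha1, Bik, Nck2 and Kctd12b.

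Without NRF2, 4 of 18 genes that break down or move heme still rose, among them Hmox1. Hmox1, heme oxygenase 1, stood at -1.44, -1.52, -1.12 and -1.56 on LPS arrays a to d and at 3.52, 2.97, 2.23, 2.54 and 1.73 on heme arrays a to e. Its ratios were below the reference on every LPS array and above it on every heme array, a rise of 4.01 ± 0.28 log2 units or 16.1-fold (adjusted p = 3.4e-06). Slc48a1, the transporter that carries heme out of the phagolysosome, stood at -1.81, -1.35, -1.40 and -1.57 without heme and at 0.95, 0.97, 0.44, 0.56 and 0.46 with it. The groups were again on opposite sides of the reference, and the rise was 2.21 ± 0.15 (adjusted p = 3.4e-06). Blvrb, a biliverdin reductase, rose by 1.28 ± 0.16 (adjusted p = 0.000299), and Hmox2, the constitutive heme oxygenase, fell by 0.64 ± 0.11 (adjusted p = 0.00222), both without overlap between the groups. Spic, the transcription factor of iron-recycling macrophages, stood at 0.83, 1.46, 1.11 and 2.11 on the LPS arrays and 2.59, 3.96, 3.80, 4.26 and 4.65 on the heme arrays. Its lowest heme array, a, was still above its highest LPS array, d, and the rise was 2.47 ± 0.50 (adjusted p = 0.00807). The list thus had 4 called higher and 1 lower, against 4.1% and 2.67% of all genes, with a median change of 0.11; without heme array a 3 were called lower. Haptoglobin, Hp, was the largest change that was not called, at 0.93 ± 0.76, with overlapping groups.

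Both ferritin chains, ferroportin and the NRAMP1 transporter rose, and the transferrin receptor fell. Slc40a1, ferroportin, the only known iron exporter of the cell, stood at -4.11, -4.02, -3.16 and -3.83 on the LPS arrays and -2.16, 0.76, -0.64, -1.14 and -1.21 on the heme arrays. All LPS arrays lay far below the reference and heme array b alone lay above it. The rise was 2.90 ± 0.69 (adjusted p = 0.0196), and the call was lost without LPS array a, b or d (adjusted p up to 0.0637). The ferritin heavy chain Fth1 was at 0.25, 0.05, 0.28 and 0.63 without heme and 1.09, 1.20, 1.23, 1.45 and 1.02 with it. The ferritin light chain Ftl1 was at -0.62, -0.73, -0.63 and -0.70 without heme and 0.66, 0.51, 0.48, 0.92 and 0.95 with it. Neither chain overlapped between the groups, and their rises were 0.89 ± 0.11 (adjusted p = 0.000251) and 1.38 ± 0.10 (adjusted p = 4.3e-06). Slc11a1, the NRAMP1 divalent metal transporter of the phagosome, lay between -0.19 and -0.01 on the LPS arrays and at 2.13, 1.03, 1.56, 2.12 and 2.00 on the heme arrays, a rise of 1.87 ± 0.19 (adjusted p = 6.02e-05). Tfrc, which takes up transferrin-bound iron, stood at -0.31, 0.66, 0.12 and -0.28 without heme and -2.0, -1.38, -0.82, -1.66 and -1.90 with it. It fell by 1.60 ± 0.26 (adjusted p = 0.00173) as the mean of 12 probes, which ranged from -1.97 to -0.04. Of 25 measured iron genes 4 were called higher and 1 lower, with a median of -0.08; 2 were called lower without LPS array a. The ferrireductase Steap4 had the largest change that was not called, -2.12 ± 1.02. With the letter as a block over the 9 knockout arrays, the calls of Hmox1, Slc48a1, Spic, Fth1, Ftl1 and Hmox2 held, and those of Blvrb, Slc40a1, Slc11a1 and Tfrc did not (adjusted p = 0.0559 to 0.109).

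Many antioxidant genes that are textbook NRF2 targets rose in macrophages without NRF2. Of 41 measured targets 18 were called higher and 0 lower with limma (0 of 41 lower at an unadjusted p under 0.05), against 4.1% and 2.67% of all genes, and the list's median change was 0.73. The list had been chosen with the heme effect of the series known, so its direction is not independent evidence. Srxn1, sulfiredoxin, which repairs over-oxidized peroxiredoxins, stood at -2.03, -1.92, -1.68 and -2.12 on the LPS arrays and 2.93, 1.81, 1.11, 2.15 and 2.07 on the heme arrays. The groups were separated by more than 2 log2 units, and the rise was 3.95 ± 0.31 or 15.4-fold (adjusted p = 8.48e-06). Gclm, the modifier subunit of glutamate-cysteine ligase, the limiting enzyme of glutathione synthesis, stood at -0.91, -0.41, -0.64 and -1.33 without heme and 3.64, 2.21, 2.21, 2.51 and 1.72 with it. Its catalytic partner Gclc stood at -1.86, -0.56, -1.19 and -2.13 with LPS and at 1.72, 1.15, 1.11, 0.94 and 0.24 with heme. Neither subunit overlapped between the groups, and heme array e had the lowest heme value of both. The rises were 3.28 ± 0.33 (adjusted p = 5.62e-05) and 2.46 ± 0.39 (adjusted p = 0.00162). Gsr, glutathione reductase, rose by 1.82 ± 0.16 (adjusted p = 1.7e-05), Slc3a2, the heavy chain of the cystine importer, by 1.41 ± 0.27 (adjusted p = 0.00534), and the microsomal transferase Mgst1 by 2.41 ± 0.30 (adjusted p = 0.000275). Slc7a11, the light chain of that importer, stood at 0.00, 3.61, 0.34 and 1.61 with LPS and at 1.34, 1.70, 5.33, 5.69 and 5.77 with heme. The groups overlapped, since LPS array b was higher than heme arrays a and b, and the change of 2.58 ± 1.15 did not pass the test (adjusted p = 0.259). Of 23 measured glutathione and cystine genes 6 were called higher and 2 lower, with a median of 0.27. The 2 lower were the peroxidase Gpx1 (-0.52 ± 0.08, adjusted p = 0.00107) and the amino acid transporter Slc1a4 (-0.52 ± 0.14, adjusted p = 0.0352), the call of Slc1a4 being lost without LPS array a, c or d or heme array b, c, d or e (adjusted p up to 0.12). Only 1 was called lower when any single array other than LPS array b or heme array a was left out.

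Of the thioredoxin and NADPH genes 7 rose, Srxn1 among them. Txnrd1, thioredoxin reductase, stood at 0.88, 0.68, 0.63 and 0.64 on the LPS arrays and 3.02, 1.96, 1.36, 2.18 and 2.18 on the heme arrays, above the reference in both groups and without overlap; it rose by 1.43 ± 0.28 (adjusted p = 0.00644). Prdx1, a peroxiredoxin, rose by 1.17 ± 0.22 (adjusted p = 0.00464). Me1, cytosolic malic enzyme, which makes NADPH from malate, stood at -0.23, 0.54, 0.35 and 0.01 without heme and 4.69, 3.94, 3.71, 4.81 and 4.44 with it. No heme array was below 3.71, and the rise of 4.15 ± 0.39 was 17.8-fold (adjusted p = 3.05e-05). Pgd, of the pentose phosphate pathway, rose by 0.73 ± 0.10 (adjusted p = 0.000522), while Rpe, an epimerase of the same pathway, fell by 0.85 ± 0.20 (adjusted p = 0.0171), a call lost without LPS array a (adjusted p up to 0.0665). Of 17 thioredoxin and peroxiredoxin genes 4 were called higher and 1 lower (median 0.09), and of 15 NADPH-making enzymes 3 and 1 (median 0.03). Besides the genes named above these were mitochondrial thioredoxin Txn2 (0.37 ± 0.06), the selenoprotein Selenot (-0.58 ± 0.13) and the NAD kinase Nadk (0.47 ± 0.11), chosen after their values were seen. Txn2 kept its call without each single array. Selenot lost its call without LPS array a or d (adjusted p up to 0.0599). Nadk lost its call without LPS array c or d or heme array d or e (adjusted p up to 0.0689). Sesn3 and Idh2 had the largest changes not called, -1.54 ± 0.47 and -0.93 ± 0.34. The lower count of the thioredoxin genes was 0 without LPS array a or d and 2 without heme array a, and that of the NADPH genes 0 without LPS array a and 2 without LPS array b. Osgin1, a growth inhibitor induced by oxidative stress, stood at -2.72, -3.19, -3.0 and -2.03 without heme and 1.67, 0.44, 0.22, 0.80 and 0.88 with it, all LPS arrays below and all heme arrays above the reference (rise 3.54 ± 0.33, adjusted p = 3.06e-05). Sqstm1, the autophagy receptor that binds KEAP1, rose by 1.07 ± 0.23 (adjusted p = 0.0117), and the efflux pumps Abcc1 and Abcc5 by 0.67 ± 0.17 and 0.50 ± 0.10 (adjusted p = 0.0276 and 0.00822), the call of Abcc1 being lost without LPS array a, c or d or heme array a, b, c or d (adjusted p up to 0.08). Nqo1, the quinone reductase often used as the readout of NRF2, stood at 0.00, -0.75, 0.07 and -0.49 with LPS and at 0.00, 1.15, 0.18, 0.71 and 0.27 with heme. The overlap of its groups came from heme array a, since every other heme array was above every LPS array. Both arrays lettered a were at 0.00, and what an exact 0 stands for is not stated. The change of 0.75 ± 0.26 did not pass the test (adjusted p = 0.12), which does not show that a rise was absent. With the letter as a block over the 9 knockout arrays, Mgst1, Pgd, Osgin1, Abcc1 and Slc1a4 kept their calls across the glutathione, thioredoxin and NADPH genes named here, and Srxn1, Gclm, Gclc, Gsr, Slc3a2, Txnrd1, Prdx1, Me1, Sqstm1, Gpx1, Abcc5, Rpe, Txn2, Selenot and Nadk lost them (adjusted p = 0.0504 to 0.301). Gsr, Blvrb, Ftl1, Sqstm1, Abcc1, Abcc5, Gpx1, Slc1a4 and Hmox2 were named after their values had been seen.

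**Figure D1:**
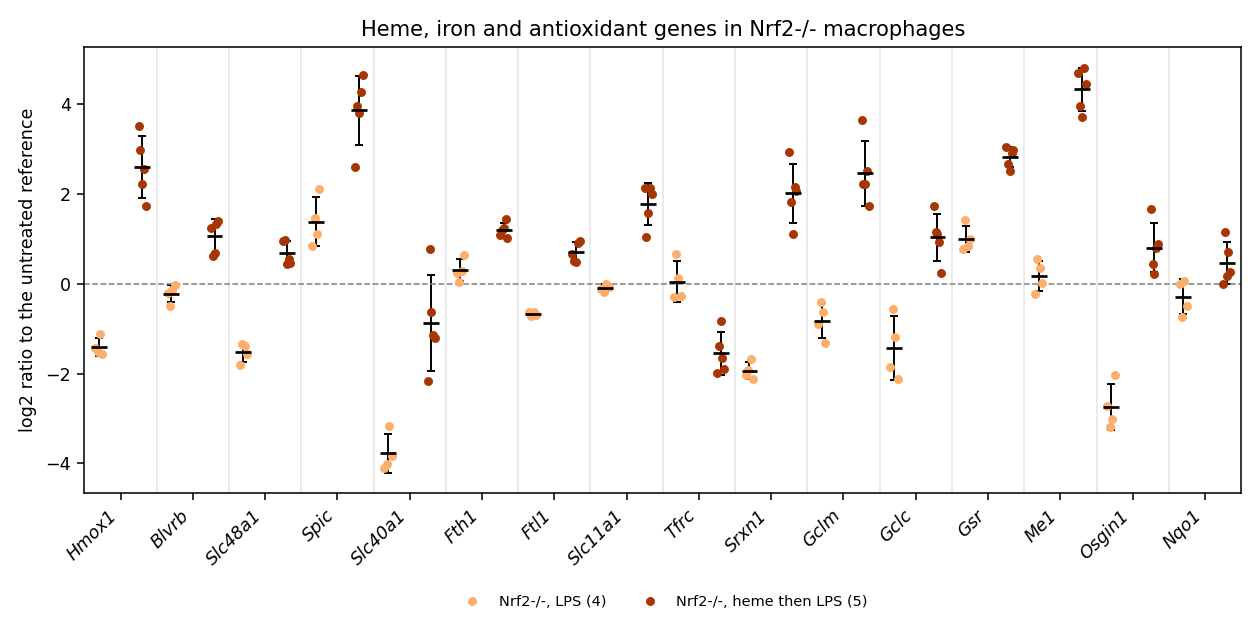
Log2 ratio to the untreated reference of 16 heme, iron and antioxidant genes on each Nrf2-/- array, with LPS alone (4 arrays, light) and with heme before LPS (5 arrays, dark); bars give the mean and whiskers the SD. Hmox1, Slc48a1, Srxn1, Gclm and Osgin1 lie below 0 on every LPS array and above 0 on every heme array. Tfrc is lower with heme, and Nqo1 overlaps through heme array a alone.

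The promoters of 3 of the genes with large rises and of 1 that fell are shown because their changes occurred without NRF2. They were chosen among genes that hold a match to one of the motifs searched. Each is the 250 bases before the annotated start from RefSeq (build GRCm38.p6), all 4 on the plus strand, at chr2:152105274-152105523 for Srxn1, chr8:119436897-119437146 for Osgin1, chr3:122245307-122245556 for Gclm and chr3:95526536-95526785 for Ctss. Matches to the metal response element, also searched, lie at -19 from the start in Srxn1 and at -138 and -72 in Gclm and are not marked. Capitals mark the match to the antioxidant response element core, the AP-1 site or the interferon-stimulated element. In Srxn1 and Osgin1 it is the AP-1 site TGANTCA, whose letters can overlap those of an antioxidant response element. In Gclm it is the reverse complement of the antioxidant response element core, read as TGAC, any 3 bases, then GC. In Ctss, cathepsin S, it is the interferon-stimulated element, GAAA, any 2 bases, then GAAA.
Srxn1: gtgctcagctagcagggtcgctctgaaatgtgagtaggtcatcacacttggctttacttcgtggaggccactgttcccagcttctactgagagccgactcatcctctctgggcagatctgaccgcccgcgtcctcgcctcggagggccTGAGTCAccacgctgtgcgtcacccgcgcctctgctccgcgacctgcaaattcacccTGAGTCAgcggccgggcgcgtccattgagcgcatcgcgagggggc
Osgin1: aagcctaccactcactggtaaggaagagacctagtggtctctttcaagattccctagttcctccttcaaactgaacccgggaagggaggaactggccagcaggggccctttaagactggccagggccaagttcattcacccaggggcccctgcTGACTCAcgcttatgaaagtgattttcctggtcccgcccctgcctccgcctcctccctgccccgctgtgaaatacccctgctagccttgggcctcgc
Gclm: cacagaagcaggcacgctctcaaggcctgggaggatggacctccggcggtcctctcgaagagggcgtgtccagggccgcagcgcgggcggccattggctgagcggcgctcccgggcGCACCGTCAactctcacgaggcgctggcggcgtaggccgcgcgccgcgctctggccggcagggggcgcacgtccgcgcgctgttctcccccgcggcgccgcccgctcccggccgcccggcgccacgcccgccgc
Ctss: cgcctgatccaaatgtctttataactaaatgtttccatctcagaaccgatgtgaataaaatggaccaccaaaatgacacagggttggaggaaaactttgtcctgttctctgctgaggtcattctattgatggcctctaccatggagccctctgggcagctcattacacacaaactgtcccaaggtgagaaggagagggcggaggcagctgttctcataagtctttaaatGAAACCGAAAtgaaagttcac

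Srxn1 carried AP-1 sites starting at -102 and -45 from its start, Osgin1 an AP-1 site at -97, Gclm the antioxidant response element core at -134 and Ctss the interferon-stimulated element at -21. Both strands of the 250 bases were searched. The antioxidant response element core was found in 10.2% of all 32851 RefSeq promoters, in 12.4% of those of genes measured here (2122 of 17162), in 12% of those called higher (90 of 750) and in 17.2% of those called higher by over 1 log2 unit (40 of 232). Among genes called lower it was found in 13.2% (63 of 477), and in 14.7% of those lower by over 1 log2 unit (31 of 211). The AP-1 site was found in 7.31% of the promoters of genes measured here. Its share was 5.73% among those called higher and 7.34% among those called lower. For changes over 1 log2 unit these shares were 7.33% and 9%. The ATF4 element, also searched, was found in 3.36% of the promoters of genes measured here. Its share was 1.87% among those called higher and 4.4% among those called lower. For the heat shock element these 3 shares were 0.513%, 0.533% and 0%. The metal response element was found in 50.8% of the promoters of genes measured here. Its share was 56.8% among those called higher, 60.8% among those higher by over 1 log2 unit and 55.8% among those called lower. Of the 18 called NRF2 targets 13 had a promoter in the table, and 4 of the 13 held the antioxidant response element core. The interferon-stimulated element was found in 3.43% of the promoters of genes measured here (588 of 17162), in 6.5% of those called lower (31 of 477), in 8.53% of those lower by over 1 log2 unit (18 of 211) and in 2% of those called higher (15 of 750). It was present in all 11 of the interferon-induced GTPase genes of the list that had a promoter in the table, none of which was called. The 4 called members of that list had no promoter in the table, so the element could not be sought in them. Of 32 type I interferon genes with a promoter there 12 held it, and neither of the 2 called did. Of 15 MHC class I genes 2 held it, both called. A match is a stretch of letters, and binding was not measured.

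Genes outside the antioxidant group also stood among the largest rises. Dnmt3l, a cofactor of the germ-line DNA methyltransferases, stood at -0.24, 0.71, 0.60 and 0.61 on the LPS arrays and 4.48, 3.94, 4.02, 4.73 and 4.57 on the heme arrays. LPS array a was its only negative value, and with a rise of 3.93 ± 0.22 it had the smallest adjusted p of the genes named here (3e-07). Pfn2, profilin 2, an actin-binding protein, rose by 3.49 ± 0.41, Afp, alpha-fetoprotein, by 3.21 ± 0.34, the stress kinase Plk3 by 3.00 ± 0.33 and Mllt11 by 2.94 ± 0.27 (adjusted p = 3.05e-05 to 0.000182). None of these 4 overlapped between the groups. Fosl1, the AP-1 subunit FRA-1, stood at 0.00, -0.03, 0.15 and -0.06 without heme and 1.46, 3.36, 2.81, 3.70 and 2.88 with it. It was level with the reference on the LPS arrays and rose by 2.82 ± 0.35 (adjusted p = 0.000265). The small MAF protein gene Mafg rose by 1.60 ± 0.18 (adjusted p = 0.000121), and Jun fell by 1.05 ± 0.27 (adjusted p = 0.0307), the last call being lost without LPS array b, c or d or heme array d (adjusted p up to 0.0914). Of 19 AP-1 and EGR genes 2 were called higher and 1 lower, with a median of -0.06. Atf3, induced by many stresses, was at -0.11 ± 0.20 and not called. The 9-array block kept the calls of Dnmt3l, Mllt11 and Bag3 among these and the heat shock and stress genes given next, and not those of Pfn2, Afp, Plk3, Fosl1, Mafg, Jun, Hsf2, Hspb1 and Ddit4 (adjusted p = 0.0504 to 0.289).

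Of 26 heat shock genes 3 rose. Hsf2, a heat shock transcription factor, rose by 1.82 ± 0.23 (adjusted p = 0.000258), and the co-chaperone Bag3 by 1.31 ± 0.19 (adjusted p = 0.000911). The small heat shock protein Hspb1 stood at 0.49, 1.23, 0.81 and 2.10 without heme and 3.68, 1.75, 1.68, 3.72 and 4.08 with it. LPS array d lay above heme arrays b and c, and the rise of 1.82 ± 0.50 (adjusted p = 0.0418) was lost without LPS array a, b or c or heme array a, d or e (adjusted p up to 0.141). Of 26 measured heat shock genes 3 were called higher and 0 lower (1 lower at an unadjusted p under 0.05 with limma), with a median change of 0.42 and 20 of 26 changes positive; 7 were called higher without heme array c. Hspa1a, inducible HSP70, was just outside the threshold at 1.70 ± 0.48 (adjusted p = 0.0502), and its probe can detect near-identical copies. Of 34 integrated stress response genes 2 were called higher, Slc3a2 and Ddit4 (1.29 ± 0.33), and 0 lower (0 at an unadjusted p under 0.05), with a median of 0.32. Ddit4, which restrains mTOR, lost its call without LPS array a or c or heme array a or c (adjusted p up to 0.0974), and only 1 member was called without LPS array a or c or heme array c. Of 14 metallothionein and zinc genes 0 were called with limma, with 2 higher and 1 lower at an unadjusted p under 0.05. The zinc importer Slc39a14 had the largest change, 0.78 ± 0.31. The metal-binding Mt1 and Mt2 were at -0.61 ± 0.38 and -0.76 ± 0.73.

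The main LPS-induced cytokine genes were not called. Tnf, encoding tumor necrosis factor, stood at 4.33, 4.49, 4.47 and 4.15 with LPS and 4.46, 4.53, 4.89, 4.94 and 4.61 with heme before LPS. The ranges overlapped, and the change was 0.33 ± 0.18 (adjusted p = 0.393). Il6 stood at 11.46, 11.59, 11.22 and 11.46 with LPS and at 9.73, 10.48, 11.31, 11.84 and 11.94 with heme, with heme arrays a and b below every LPS array and heme arrays d and e above them (change -0.37 ± 0.47, adjusted p = 0.817). Il12b, a subunit of IL-12 and IL-23, spread in the same way, from 7.09 on heme array a to 9.60 on heme array e, against 8.54 to 9.33 on the LPS arrays (change -0.32 ± 0.70, adjusted p = 0.937). The change of Il1b was 0.15 ± 0.22, that of Ccl5 0.14 ± 0.23, that of Cxcl10 -0.57 ± 1.02 and that of Ifnb1, interferon beta, 0.47 ± 0.61. Their adjusted p ranged from 0.824 to 0.906. Nos2, inducible nitric oxide synthase, stood at 5.47, 5.75, 5.58 and 6.2 with LPS and at 5.28, 3.71, 4.85, 6.01 and 4.98 with heme. Heme array b was lowest and heme array d within the LPS range, and the change was -0.78 ± 0.34 (adjusted p = 0.238). An adjusted p above the threshold does not show that these genes were equal. Of 26 pro-inflammatory genes 0 were called higher (1 at an unadjusted p under 0.05) and 1 lower, with a median of -0.12; this 1 was Il18, a cytokine released by inflammasomes, at 3.01, 2.70, 2.71 and 3.09 with LPS and 1.44, 0.87, 1.51, 2.17 and 2.14 with heme before LPS. Il18 did not overlap and fell by 1.25 ± 0.23 (adjusted p = 0.00464). Il10, the main anti-inflammatory cytokine, stood at 5.33, 5.21, 5.03 and 5.89 with LPS and at 3.79, 3.52, 4.31, 4.49 and 4.21 with heme. Every heme array was below every LPS array and the fall was 1.30 ± 0.29 (adjusted p = 0.0151), but the call was lost without LPS array d (adjusted p = 0.0569), under quantile normalization (0.111) and with the 9-array block (0.0772).

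Among 24 chemokines 2 were called higher and 1 lower, with a median of 0.00. These were 8.33% and 4.17% of the list, against 4.1% and 2.67% of all genes. Cxcl2, which draws neutrophils, stood at 6.22, 7.84, 6.78 and 6.67 with LPS and at 7.98, 7.52, 9.10, 9.76 and 9.51 with heme; heme array b lay within the LPS range, and the rise was 1.90 ± 0.47 (adjusted p = 0.0235), lost without LPS array a, c or d or heme array c, d or e (adjusted p up to 0.088). Ccl9 rose by 0.64 ± 0.15 (adjusted p = 0.0169; lost without LPS array a or c, with adjusted p up to 0.0522). Ccl8, a monocyte chemokine, fell by 3.22 ± 0.89 (adjusted p = 0.0435; lost without LPS array a, b or d or heme array c or e, with adjusted p up to 0.127). The count of chemokines called higher was 0 without LPS array a or c and 1 without LPS array d or heme array c, d or e, and the count called lower 0 without LPS array a or d or heme array c or e. Ccl12 had the largest change that was not called, -2.13 ± 0.98, although its groups did not overlap; its probe can share sequence with Ccl2. Of 25 NF-kB pathway and feedback genes 1 was called in each direction, with a median of -0.08 and 20 of 25 changes negative. The share of 4.0% in each direction was near those of all genes, 4.1% higher and 2.67% lower. Birc2, the ubiquitin ligase cIAP1, stood at 2.80, 1.94, 2.04 and 2.20 with LPS and at 1.20, 1.08, 0.77, 1.12 and 1.29 with heme, without overlap, and fell by 1.16 ± 0.17 (adjusted p = 0.000939). Ikbkg, the NEMO subunit of the IkB kinase, rose by 0.57 ± 0.16 at an adjusted p that rounds to 0.05, and lost the call without LPS array b, c or d or heme array a, b, c or d (adjusted p up to 0.143). Zc3h12a, an RNase that degrades cytokine transcripts, had the largest change not called, 0.98 ± 0.58.

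**Figure D2:**
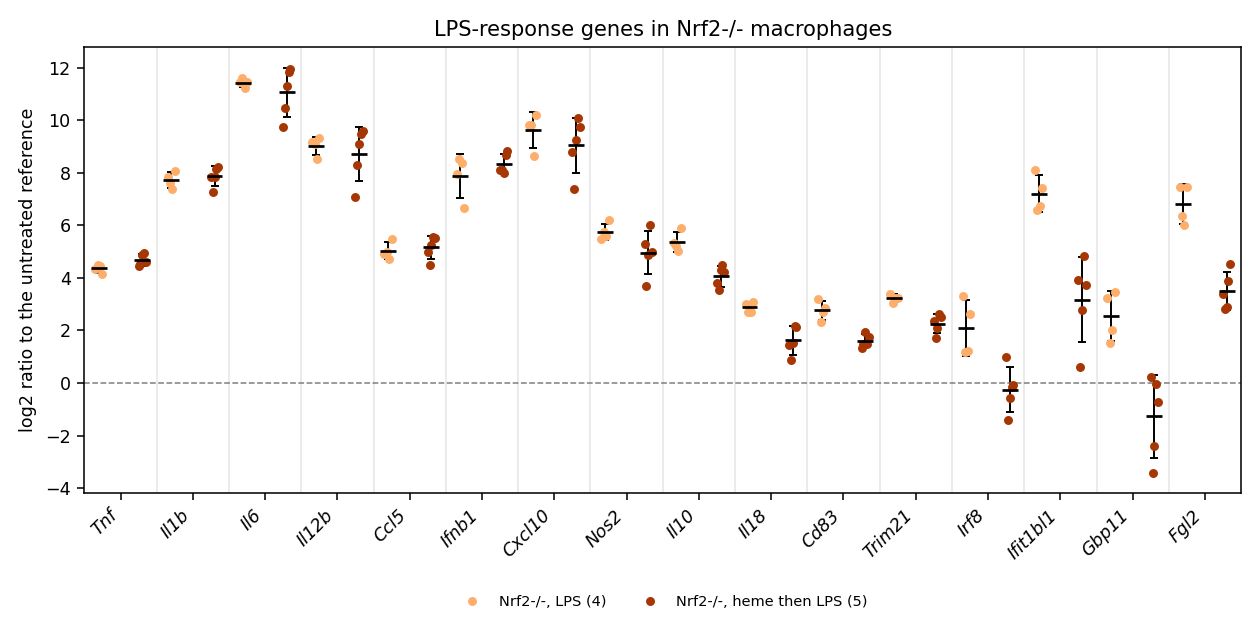
Log2 ratio to the untreated reference of 16 LPS-response genes on each Nrf2-/- array, with LPS alone (4 arrays, light) and with heme before LPS (5 arrays, dark); bars give the mean and whiskers the SD. From Tnf to Nos2 the groups overlap, and from Il10 to Fgl2 every heme array is below every LPS array.

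Of 41 interferon-response genes 39 had a lower mean with heme, and 3 passed the test. Those 3 are 7.32% of the list, against 2.67% of all genes called lower. The 41 measured genes of the type I interferon response had a median ratio of 3.27, 2.50, 2.55 and 3.30 on LPS arrays a to d and of 2.37, 0.42, 1.5, 2.23 and 1.91 on heme arrays a to e. Every heme array was below every LPS array in this median, and heme array b was the lowest. The median change was -0.97, but 0 were called higher (0 at an unadjusted p under 0.05) and 3 lower (16 at an unadjusted p under 0.05), with 1 called lower without LPS array a, b or d or heme array b or c. The 3 were Tnfsf10, the death ligand TRAIL (-3.0 ± 0.78, adjusted p = 0.0327), the DNA sensor family member Ifi204 (-1.37 ± 0.37, adjusted p = 0.0415) and the cytosolic antibody receptor Trim21 (-0.97 ± 0.20, adjusted p = 0.0101). Tnfsf10 stood at 7.09, 6.95, 6.24 and 7.18 with LPS and at 4.76, 1.74, 3.35, 4.75 and 4.72 with heme, without overlap, and its call was lost without LPS array a, b or d or heme array b or c (adjusted p up to 0.0908). That of Ifi204 was lost without LPS array a, b or d or heme array b, c or e (adjusted p up to 0.13). Trim21 kept its call without each single array, but not under quantile normalization (adjusted p = 0.162) or in the 9-array block (0.068). Ifit1bl1, a member of the IFIT family outside this list, stood at 8.10, 6.59, 6.73 and 7.41 with LPS and at 3.94, 0.60, 2.80, 4.83 and 3.72 with heme. All heme arrays were below all LPS arrays, and the fall was 4.03 ± 0.80 (adjusted p = 0.00675); IFIT genes are close relatives and a probe can detect several. Ddx60, an antiviral helicase, had the largest change of the list not called, -1.87 ± 0.79. Irf8, a transcription factor of interferon and myeloid genes, stood at 3.30, 1.16, 1.24 and 2.64 with LPS and at 0.98, -1.41, -0.57, -0.17 and -0.08 with heme and fell by 2.34 ± 0.50 (adjusted p = 0.0109).

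The interferon-induced GTPases, guanylate-binding proteins and immunity-related GTPases that attack the vacuoles of pathogens, had median ratios of 3.74, 3.23, 3.41 and 4.45 on the LPS arrays and 2.91, 0.79, 1.73, 3.19 and 3.02 on the heme arrays. All 19 changes were negative, with a median of -1.33; 0 were called higher (0 at an unadjusted p under 0.05) and 4 lower (10 at an unadjusted p under 0.05), or 7 without heme array a. Gbp11 stood at 3.25, 1.51, 2.02 and 3.46 with LPS and at 0.22, -3.41, -2.40, -0.03 and -0.71 with heme, above the reference with LPS and mostly below it with heme, and fell by 3.83 ± 0.71 (adjusted p = 0.00455). Gbp9 fell by 3.12 ± 0.65 (adjusted p = 0.00923) and Gbp8 by 2.84 ± 0.60 (adjusted p = 0.01). Gbp4 had a called change of -3.41 ± 0.94 with overlapping groups, lost without LPS array a, c or d or heme array b, c or e (adjusted p up to 0.149). The GTPase Iigp1 was at -2.76 ± 0.84 and not called. The Gbp genes lie in a cluster of close copies, so a probe can detect more than its named gene. MHC class I genes, whose products load and display peptides of the cell's own proteins, had median ratios of 1.46, 0.95, 0.93 and 1.89 with LPS and 0.74, -0.11, 0.45, 0.78 and 0.50 with heme before LPS. All 20 changes were negative (median -0.73), and 7 were called lower, or 1 without LPS array a or d, 2 without heme array e, 3 without heme array b or c and 4 without LPS array c. H2-M3, which presents formylated bacterial peptides, stood at 0.81, 0.70, 0.90 and 0.89 with LPS and at -0.15, -0.23, -0.23, 0.05 and 0.12 with heme, a tight group each, and fell by 0.91 ± 0.10 (adjusted p = 0.000125). The others were H2-T24 (-1.88 ± 0.47), the immunoproteasome subunit Psmb9 (-1.18 ± 0.32), the proteasome activators Psme1 (-0.72 ± 0.19) and Psme2 (-0.86 ± 0.23), H2-T23 (-0.70 ± 0.19) and the light chain B2m (-0.58 ± 0.16), at adjusted p of 0.0275 to 0.0438. The value of Psme2 is the mean of 3 probes, which ranged from -1.54 to -0.47. All 6 calls were lost without LPS array a or d. Those of Psmb9, Psme1, H2-T23 and B2m were also lost without heme array b or c, those of H2-T24, Psme1, Psme2, H2-T23 and B2m without heme array e, those of H2-T24 and Psme2 without LPS array b, and those of Psmb9, H2-T23 and B2m without LPS array c, with adjusted p up to 0.151. H2-T10 had the largest change not called, -1.13 ± 0.33. Gbp8, Psme1, Psme2, H2-T23 and B2m were named after their values had been seen. Of 13 MHC class II genes 1 was called in each direction, 7.69% each, against 4.1% higher and 2.67% lower of all genes. Ctss, the protease that trims the invariant chain, stood at 0.67, 0.34, 0.29 and 0.34 with LPS and at -0.19, -0.33, -0.29, -0.32 and -0.56 with heme and fell by 0.75 ± 0.13 (adjusted p = 0.00277). H2-Ab1, a class II chain, rose by 0.84 ± 0.21 (adjusted p = 0.0287), a call lost without LPS array a, b or d or heme array d or e (adjusted p up to 0.0839). H2-Eb1 was at 0.51 ± 0.26 and not called.

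Of 16 surface molecules that activate T cells 3 fell with heme. Cd83, a maturation marker, stood at 3.18, 2.33, 2.69 and 2.85 with LPS and 1.34, 1.49, 1.94, 1.49 and 1.77 with heme before LPS, without overlap, and fell by 1.16 ± 0.18 (adjusted p = 0.00133). Tnfsf4, the OX40 ligand, stood at 4.07, 1.66, 2.81 and 5.05 with LPS and at 0.66, -1.24, 0.00, 0.56 and 1.45 with heme, and the receptor Slamf7 fell by 1.27 ± 0.36 (adjusted p = 0.0479). The fall of Tnfsf4, 3.11 ± 0.80 (adjusted p = 0.0302), was lost without LPS array a or d or heme array b, c or d (adjusted p up to 0.111), and that of Slamf7 without LPS array a, b or d or heme array a or c (adjusted p up to 0.156). Of these co-stimulation genes 0 were called higher (1 at an unadjusted p under 0.05) and 3 lower, or 1 without LPS array a or d or heme array c, with a median of -0.49. Slamf1 had the largest change not called, -2.46 ± 1.41. Tnfsf18, the GITR ligand, outside that list, fell by 3.13 ± 0.67 (adjusted p = 0.0111). Fgl2, an immune-regulatory prothrombinase, stood at 7.45, 6.35, 6.0 and 7.47 with LPS and at 3.39, 2.80, 2.91, 3.90 and 4.54 with heme. The heme arrays lay at about the middle between the reference and the LPS arrays, and the fall was 3.31 ± 0.44 or 9.92-fold (adjusted p = 0.000452). Fst, follistatin, which binds activin, stood at 5.86, 4.75, 5.18 and 6.12 with LPS and at 0.00, 0.00, 1.29, 3.14 and 4.47 with heme; heme arrays a and b were at 0 and heme array e nearly reached the LPS range, with a fall of 3.70 ± 0.75 (adjusted p = 0.00822).

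LPS receptors and signal carriers moved in both directions. Of 27 such genes 5 were called lower and 2 higher, with a median of -0.19. These were 18.5% and 7.41% of the list, against 2.67% and 4.1% of all genes. Tlr4, the LPS receptor itself, stood at -0.68, -1.23, -0.59 and -0.62 with LPS and at -0.87, -1.89, -1.59, -1.43 and -1.58 with heme; LPS array b lay within the heme range, and the fall of 0.69 ± 0.17 (adjusted p = 0.0251) was lost without LPS array a, c or d or heme array b, c or e (adjusted p up to 0.0815). Tlr3, the receptor for double-stranded RNA, fell by 2.56 ± 0.64 (adjusted p = 0.0268; lost without LPS array a or d or heme array b or c, with adjusted p up to 0.101), and Tlr6, a receptor for lipopeptides, by 1.36 ± 0.30 (adjusted p = 0.0121). Tab2, an adaptor of the kinase TAK1, fell by 0.64 ± 0.14 (adjusted p = 0.011). The fifth called lower was Irf8, given above, and Tlr1 had the largest change not called, -1.02 ± 0.35. Mapk14, the p38 kinase, stood at -1.31, -0.64, -0.94 and -1.49 with LPS and at -0.17, 0.05, -0.18, 0.10 and -0.32 with heme and rose by 0.99 ± 0.22 (adjusted p = 0.0126), and the adaptor Ticam1 rose by 0.84 ± 0.20 (adjusted p = 0.0182; lost without LPS array a or c, with adjusted p up to 0.0712). The number called lower was 3 without LPS array a or d or heme array b or c, and the number called higher 1 without LPS array a or c. Tlr4, Tab2, Mapk14 and Ticam1 were named after their values had been seen. Of 19 inflammasome genes 0 were called higher (1 at an unadjusted p under 0.05) and 4 lower, or 2 without LPS array a or b or heme array d, with a median of -0.41. Pycard, the adaptor ASC, stood at 0.09, -0.60, -0.69 and -0.02 with LPS and at -1.54, -1.31, -1.41, -1.56 and -1.47 with heme, and fell by 1.16 ± 0.22 (adjusted p = 0.00475). The heme arrays of Pycard were close together, between -1.56 and -1.31, and below every LPS array. The other 3 called were Il18, the NLRP3-binding kinase Nek7 (-0.44 ± 0.11, adjusted p = 0.0262; lost without LPS array a or b or heme array a or d, with adjusted p up to 0.0894), named after its value was seen, and Naip6 (-0.51 ± 0.14, adjusted p = 0.0377; lost without LPS array a, b, c or d or heme array b, c, d or e, with adjusted p up to 0.11), a sensor family member. Mefv, pyrin, had the largest change not called, -0.92 ± 0.35. Casp8, a protease of cell death, fell by 1.15 ± 0.21 (adjusted p = 0.00382).

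The receptors for extracellular nucleotides of the P2RY12 to P2RY14 cluster fell together. P2ry12 stood at -0.55, -0.61, -0.67 and -0.59 with LPS and -2.84, -2.02, -2.10, -2.71 and -3.21 with heme before LPS. P2ry13 stood at 1.03, -0.36, 0.29 and 0.82 with LPS and at -3.26, -2.07, -1.80, -1.74 and -1.99 with heme. P2ry14, the receptor for UDP-glucose, stood at 2.23, 1.98, 1.82 and 2.58 with LPS and at 0.33, -1.68, -0.30, 0.36 and 0.51 with heme. In each of these receptors every heme array was below every LPS array. The falls were 1.97 ± 0.23 (adjusted p = 0.00016), 2.62 ± 0.36 (adjusted p = 0.000616) and 2.31 ± 0.42 (adjusted p = 0.00387). They were the only 3 of 19 purinergic, adenosine and lipid receptors called lower, 0 being called higher (1 at an unadjusted p under 0.05), and the count of 3 was the same without each single array; 1 without heme array b was called higher. Gpr84 had the largest change not called, 1.13 ± 0.83. The cholesterol exporters Abcg1 and Abca1 fell. Abcg1 stood at -0.01, -1.48, -0.62 and 0.20 with LPS and at -2.62, -3.78, -3.99, -3.25 and -3.27 with heme, the heme arrays all far below the reference, a fall of 2.90 ± 0.34 (adjusted p = 0.000178). Abca1 fell by 1.49 ± 0.40 (adjusted p = 0.04; lost without LPS array b, c or d or heme array a, b, c, d or e, with adjusted p up to 0.138), and Mylip, the LXR-induced ligase that degrades the LDL receptor, by 1.31 ± 0.24 (adjusted p = 0.00424). The fourth called lower was the cholesterol carrier Npc2 (-0.40 ± 0.11, adjusted p = 0.0467; lost without LPS array a, c or d or heme array a, b, d or e, with adjusted p up to 0.16), named after its value was seen. Ch25h, cholesterol 25-hydroxylase, had the largest change not called, -1.37 ± 0.54. Of 23 LXR and lipid genes 0 were called higher (2 at an unadjusted p under 0.05) and 4 lower, or 2 without LPS array c or d or heme array a, b, d or e; 1 was called higher without LPS array c or heme array a. Of 21 cholesterol synthesis and uptake genes 3 were called higher, Mvd (0.96 ± 0.24), Pmvk (0.80 ± 0.18) and Sc5d (0.79 ± 0.22), at adjusted p of 0.0161 to 0.0442, and 0 lower (2 at an unadjusted p under 0.05), with a median of 0.35. The calls of Mvd and Sc5d were lost without LPS array a or b or heme array b, c or d (adjusted p up to 0.0903) and without LPS array a, b or d or heme array b, c, d or e (adjusted p up to 0.103). Cyp51 was at 0.95 ± 0.30 and not called. Their number was 1 without LPS array a or b or heme array b, c or d and 6 without heme array a. With the letter as a block over the 9 knockout arrays, the calls of Fgl2, Tnfsf18, Abcg1, H2-M3, Ctss, Irf8, Casp8 and Gbp8 held, and those of the others did not (adjusted p = 0.0504 to 0.428), over the called genes named from the cytokines to the cholesterol genes.

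Macrophage transcription factors were called in both directions, 2 higher and 3 lower of 28 (median -0.10). These were 7.14% and 10.7% of the list, against 4.1% and 2.67% of all genes. Cebpa, which drives myeloid differentiation, stood at -4.52, -4.38, -3.55 and -3.75 with LPS and -2.51, -1.22, -1.46, -2.56 and -2.92 with heme before LPS. It was far below the reference in both groups and rose by 1.92 ± 0.50 (adjusted p = 0.0334; lost without LPS array a, b or d or heme array b or c, with adjusted p up to 0.11). Maf, named after its values had been seen, fell by 1.08 ± 0.17 (adjusted p = 0.00157), as did Cebpd (-0.70 ± 0.18, adjusted p = 0.0329; lost without LPS array a, b or d or heme array a, b, d or e, with adjusted p up to 0.119). The others called were Spic and Irf8, and Bhlhe40 had the largest change not called, 1.12 ± 0.40. The number called higher was 1 without LPS array a, b or d or heme array b. Axl, a receptor for dying cells, stood at 2.27, 1.75, 1.77 and 2.10 with LPS and at 0.98, -0.85, 0.60, 1.09 and 0.54 with heme and fell by 1.5 ± 0.33 (adjusted p = 0.012). Of 27 scavenger and efferocytosis genes 2 were called higher, the lectins Clec4n (1.06 ± 0.26) and Clec4d (0.81 ± 0.19), and 1 lower, Axl. The calls of Clec4n and Clec4d (adjusted p = 0.0237 and 0.0208) were lost without LPS array a, b or c or heme array d (adjusted p up to 0.0707) and without LPS array c or d (adjusted p up to 0.0634). Mertk, the related receptor, was at -2.14 ± 0.66 and not called. The number higher was 0 without LPS array c and 1 without LPS array a, b or d or heme array d, and the number lower 2 without heme array a or b and 4 without LPS array b. The antibody receptors Fcgr1 and Fcgr4 fell by 2.44 ± 0.62 and 1.45 ± 0.36 (adjusted p = 0.0288 and 0.0231), the only called members of 16 Fc receptor and complement genes, with 0 higher (0 at an unadjusted p under 0.05). Their calls were lost without LPS array a, b or d or heme array c (adjusted p up to 0.0987) and without LPS array a or d (adjusted p up to 0.0845). The count was 0 without LPS array a or d and 1 without heme array c. The complement inhibitor Serping1 had the largest change not called, -1.32 ± 0.46. Of 25 anti-inflammatory genes 0 were called higher (1 at an unadjusted p under 0.05) and 4 lower, Fgl2, Il10, Stat3 and Maf, or 2 without LPS array d. Stat3, the transcription factor downstream of IL-10, fell by 1.20 ± 0.30 (adjusted p = 0.028), a call lost without LPS array a or d or heme array c (adjusted p up to 0.105). The receptor antagonist Il1rn had the largest change not called, -1.12 ± 0.88.

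The remaining lists had few calls or calls in both directions. For comparison, 4.1% of all genes were called higher and 2.67% lower. Of 32 glycolysis and hypoxia genes 4 were called higher, the glucose carrier Slc2a1 (0.87 ± 0.21, adjusted p = 0.0238; lost without LPS array a or b or heme array b or d, with adjusted p up to 0.0856), the prolyl hydroxylase P4ha2 (1.08 ± 0.21, adjusted p = 0.00546), Ddit4 and the aldolase Aldoa (0.39 ± 0.11), and 4 lower, Hk3 (-0.86 ± 0.24), Pdk1 (-0.81 ± 0.17), P4ha1 (-0.68 ± 0.14) and Ndrg1 (-0.61 ± 0.16). Without single arrays these counts went down to 1 higher (LPS array a) and 2 lower (LPS array a, c or d or heme array b or e). Pfkfb3 had the largest change not called, -1.19 ± 0.57. Of 32 lysosomal genes 1 was called higher, the lysosomal regulator Tfe3 (0.46 ± 0.11, adjusted p = 0.0196; lost without LPS array a or b, with adjusted p up to 0.0637), and 4 lower, Npc2, the membrane protein Lamp2 (-0.45 ± 0.11) and the proteases Ctss and Ctsl (-0.56 ± 0.14, adjusted p = 0.0262; lost without LPS array a, b or c or heme array d, with adjusted p up to 0.074). Tfeb, a relative of Tfe3, was at 0.90 ± 0.27 and not called. The lower count was 1 without LPS array a and 2 without LPS array c or d or heme array d or e, and the higher count 0 without LPS array a or b and 2 without LPS array d. Of 34 respiratory chain genes 0 were called with limma, with 2 higher and 7 lower at an unadjusted p under 0.05, and 3 were called lower without heme array b, 2 without heme array c and 1 without LPS array c. The subunit gene Atp5d had the largest change, 0.37 ± 0.16. Of 25 matrix proteases and inhibitors 0 were called, with 2 higher and 2 lower at an unadjusted p under 0.05, and Mmp25 had the largest change, -1.42 ± 0.70. Of 36 cell cycle genes 32 had a negative change (median -0.50), and 1 was called lower, Tyms, thymidylate synthase (-0.87 ± 0.25, adjusted p = 0.0499; lost without LPS array a, b, c or d or heme array a, b, c or e, with adjusted p up to 0.165). Of 24 cell death and p53 genes 3 were called higher, Gadd45a (1.44 ± 0.36, adjusted p = 0.0251; lost without LPS array a, c or d or heme array c, with adjusted p up to 0.0943), Pmaip1, NOXA (1.34 ± 0.38, adjusted p = 0.049; lost without LPS array b, c or d or heme array a, b, d or e, with adjusted p up to 0.158) and Bik (0.89 ± 0.24), and 2 lower, Casp8 and its inhibitor Cflar (-0.60 ± 0.17). The largest change not called was that of the death receptor Fas, -0.77 ± 0.35, and among the cell cycle genes that of Ccnd2, -1.28 ± 0.54. Aldoa, Hk3, Pdk1, P4ha1, Ndrg1, Lamp2, Bik, Cflar and Cebpd were named after their values were seen. Of these Pdk1 and P4ha1 kept their calls without each single array, whereas Aldoa lost it without LPS array a, b or c or heme array b, d or e (adjusted p up to 0.155). Hk3 lost its call without LPS array a, c or d or heme array b, d or e (adjusted p up to 0.15). Ndrg1 lost its call without LPS array a, c or d or heme array b or e (adjusted p up to 0.125). Lamp2 lost its call without LPS array a or d or heme array e (adjusted p up to 0.0811). Bik lost its call without LPS array a or d or heme array b, c or d (adjusted p up to 0.147). Cflar lost its call without LPS array a, b or d or heme array a, b, c or e (adjusted p up to 0.172). The higher count was 0 without LPS array d and 1 without LPS array a or c or heme array b, c or d, and the lower count 1 without LPS array a, b or d or heme array a, b, c or e.

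**Figure D3:**
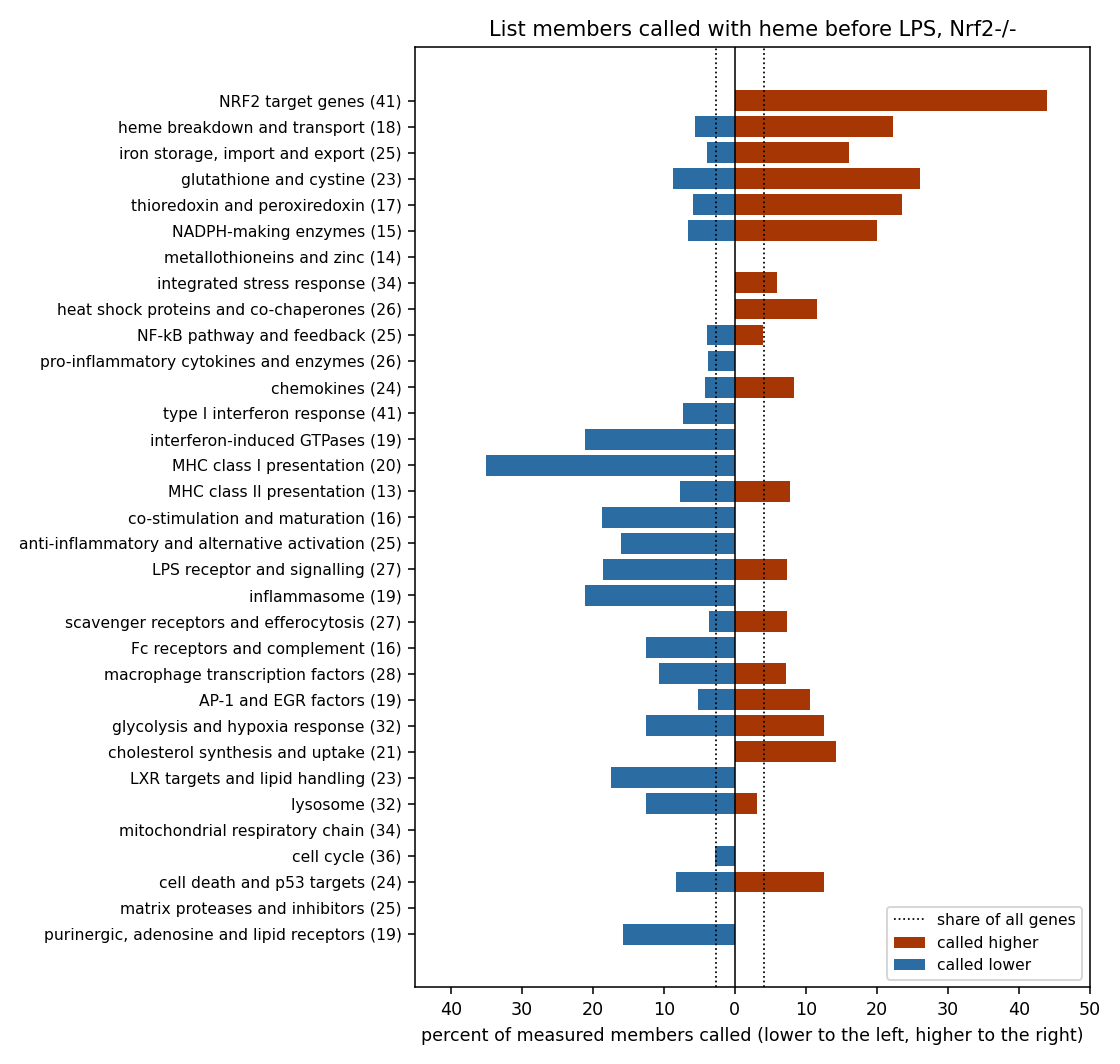
Percent of the measured members of each gene list (number in brackets) that were called higher (right) or lower (left) with heme before LPS in Nrf2-/- macrophages; dotted lines give the share of all 22485 genes, 4.1% higher and 2.67% lower. NRF2 targets have the longest bar to the right (18 of 41) and MHC class I genes the longest to the left (7 of 20).

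The second genotype allows the heme effect without NRF2 to be set beside that with it. In wild-type macrophages 1876 genes were called higher with heme before LPS (8.34%) and 1427 lower (6.35%), from 3 against 3 arrays that share none with the knockout contrast. Both contrasts came from 1 fit with the same variance per gene, so a gene of small variance is more readily called in both. The overlap of calls is therefore partly built in, also for the gene sets picked on wild-type calls below. Of the genes called in the knockout, 84.7% of the higher and 82.9% of the lower were also called in that direction in wild type (781 and 498 genes), while these were 41.6% and 34.9% of the wild-type calls. Called in opposite directions were 4 genes, Ccl9 and Cd300e, higher in the knockout, and D16Ertd472e and Nck2, lower in the knockout, the last 3 named after their values were seen. Cd300e lost its knockout call without LPS array a, c or d (adjusted p up to 0.0685). D16Ertd472e lost its knockout call without LPS array a, b or c or heme array b or d (adjusted p up to 0.0806). Nck2 lost its knockout call without LPS array a or b or heme array c, d or e (adjusted p up to 0.102). The 1876 genes called higher in wild type had a median change of 1.05 there, which picked them, and of 0.49 in the knockout, where 1749 had the same sign. The 1427 called lower had a median of -1.30 in wild type and of -0.64 in the knockout, with 1374 of the same sign. Over all 22485 genes, which are not independent replicates, the changes in the genotypes correlated at r = 0.707. By list, 35 of 41 NRF2 targets were called higher in wild type, against 18 in the knockout, with median changes of 1.99 and 0.73. In wild type 38 of 41 type I interferon genes, 17 of 19 interferon-induced GTPases and 14 of 20 MHC class I genes were called lower, with medians of -2.59, -3.62 and -1.51. The difference between the genotypes passed the test for 1, 0 and 0 of these genes, so for the rest a smaller change in the knockout did not pass the test. LPS against albumin in wild type called 2768 genes higher (12.3%) and 3665 lower (16.3%). Of 655 genes that LPS raised at least 4-fold, picked on arrays outside the knockout contrast, 136 (20.8%) were called lower with heme in the knockout and 6 (0.916%) higher. Of all genes 2.67% were called lower and 4.1% higher. Of the 655 genes 556 had a negative change, and the median was -0.71. Their median heme change in wild type, which shares the LPS arrays that picked them, was -1.62. The 136 were 73 without LPS array a and 78 without LPS array d, and 49 in a fit of the 9 knockout arrays alone. Of 276 genes at least 4-fold higher with heme before LPS in wild type, 136 (49.3%) were called higher in the knockout and 0 lower, with a median of 1.13 in the knockout against the 2.65 in wild type that picked them. Of 519 genes that LPS lowered at least 4-fold, 87 (16.8%) were called higher with heme in the knockout and 4 (0.771%) lower (Amacr, Kctd12b, Mbd4 and Rasa3, named after their values were seen), with a median of 0.34. Mbd4 and Rasa3 kept their calls without each single array. Amacr lost its call without LPS array a, b, c or d or heme array a, d or e (adjusted p up to 0.113). Kctd12b lost its call without LPS array a, b, c or d or heme array a, b, c or d (adjusted p up to 0.0899).

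**Figure D4:**
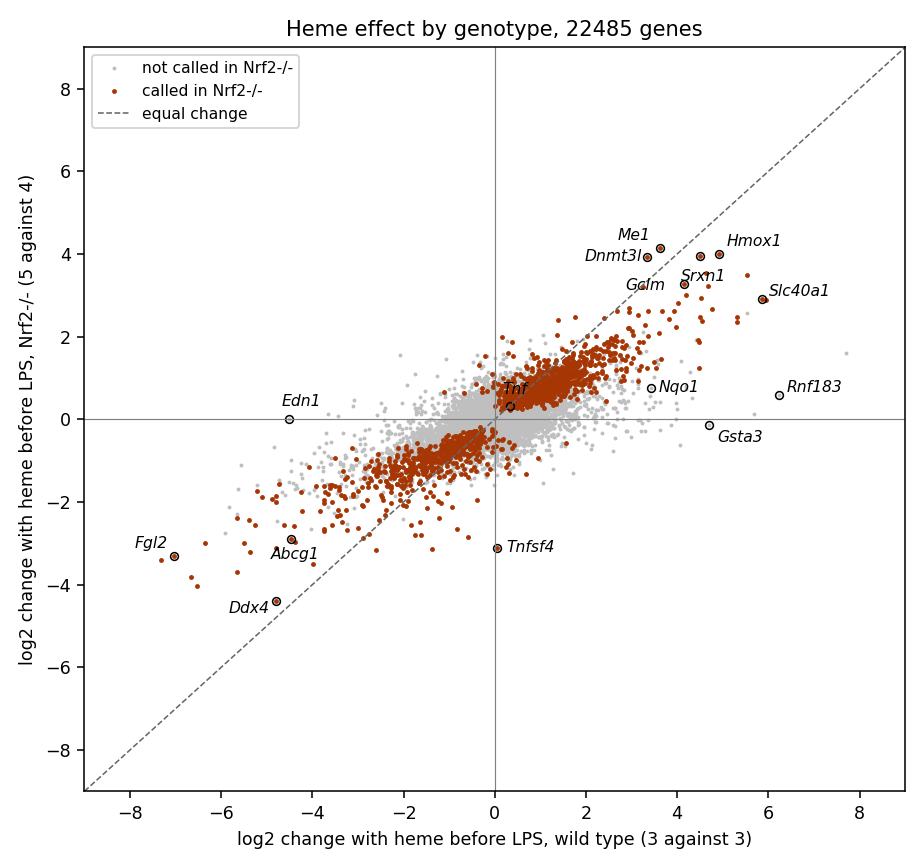
Log2 change with heme before LPS in wild type (horizontal, 3 against 3 arrays) and in Nrf2-/- macrophages (vertical, 5 against 4 arrays) for 22485 genes, those called in the knockout in colour, with the line of equal change dashed. Hmox1, Me1, Srxn1 and Dnmt3l lie near the line, whereas Gsta3 and Rnf183 on the right and Edn1 on the left lie near a knockout change of 0. Nqo1, on the right, lies below the line at a knockout change of 0.75.

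The difference between the 2 heme effects was tested directly as an interaction, which subtracts the wild-type change from the knockout change, and 213 genes passed (0.947%), 54 positive and 159 negative. The positive count was 34 without wild-type LPS array b, 36 without wild-type heme array c, 104 without wild-type heme array a and 123 without heme array b, and the negative count 101 without wild-type LPS array b and 104 without wild-type heme array c. Among 41 NRF2 targets 11 passed, all negative. Nqo1 stood at -0.86, 0.06 and 0.07 on the wild-type LPS arrays and 3.57, 2.98 and 2.98 on the wild-type heme arrays, against the knockout values given above. Its change was 3.42 in wild type and 0.75 in the knockout, an interaction of -2.67 ± 0.41 (adjusted p = 0.00515). Gsta3, a glutathione transferase, changed by 4.71 in wild type and stood at 0.00, -0.22, 0.06 and -0.88 with LPS and at 0.00, 0.00, -0.15, -1.39 and -0.45 with heme in the knockout, where the groups overlapped around 0 (interaction -4.84 ± 0.57, adjusted p = 0.000813). The interaction was -5.66 ± 0.73 for Rnf183 (adjusted p = 0.00142), -5.56 ± 0.89 for Fam13a (adjusted p = 0.00656), -4.70 ± 0.60 for the endothelin receptor Ednrb (adjusted p = 0.00137) and -4.0 ± 0.51 for Lypd6b (adjusted p = 0.00127), none of them called in the knockout. Gclc and Prdx1 rose in both genotypes, by 5.32 and 2.87 in wild type, with interactions of -2.85 ± 0.62 (adjusted p = 0.043; lost without LPS array a, b or c or heme array c, d or e or wild-type LPS array a, b or c or wild-type heme array a or c, with adjusted p up to 0.12) and -1.70 ± 0.34 (adjusted p = 0.0294; lost without LPS array a, b, c or d or heme array c or e or wild-type LPS array a, b or c or wild-type heme array a or c, with adjusted p up to 0.0821). The efflux pumps Abcc1 and Abcc5 had interactions of -1.54 ± 0.27 (adjusted p = 0.0107) and -0.74 ± 0.16 (adjusted p = 0.049; lost without LPS array b, c or d or heme array a, b, c, d or e or wild-type LPS array a, b or c or wild-type heme array b or c, with adjusted p up to 0.14). For other targets the interaction was not called. It was -0.90 ± 0.44 for Hmox1, -0.56 ± 0.49 for Srxn1, -0.87 ± 0.52 for Gclm, 0.53 ± 0.61 for Me1, -1.08 ± 0.52 for Osgin1, 0.13 ± 0.17 for Fth1 and -0.16 ± 0.25 for Gsr, at adjusted p of 0.659 or more, which does not show that the genotypes were equal.

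Inflammatory genes had called interactions in both directions. Of 26 pro-inflammatory genes 2 were positive, a change higher in the knockout than in wild type, and 1 was negative. Of 24 chemokines 2 were positive and 2 negative. The negative ones were Il1f9, an IL-1 family cytokine (-3.34 ± 0.64, adjusted p = 0.0211; lost without wild-type LPS array a or b or wild-type heme array b or c, with adjusted p up to 0.0605), Ppbp, a platelet chemokine (-3.46 ± 0.44, adjusted p = 0.00127), both named after their values were seen, and Cxcl5, whose values follow. Nos2 stood at 5.48, 5.50 and 5.38 with LPS and 2.13, 1.30 and 1.70 with heme before LPS in wild type. The wild-type groups were far apart where those of the knockout overlapped, and the interaction was 2.96 ± 0.53 (adjusted p = 0.0144). Cd83 changed by -4.08 in wild type and by -1.16 in the knockout, both called (interaction 2.92 ± 0.28, adjusted p = 0.000123). Themis2 changed by -5.21 and -1.74 (3.47 ± 0.44, adjusted p = 0.00137), Trim21 by -3.04 and -0.97 (2.07 ± 0.32, adjusted p = 0.00514), and Fgl2 by -7.05 and -3.31 (3.74 ± 0.70, adjusted p = 0.0187; lost without wild-type LPS array a or wild-type heme array b or c, with adjusted p up to 0.0589). Edn1, endothelin 1, a vasoconstrictor peptide, stood at 7.74, 7.16, 7.23 and 8.08 with LPS and at 6.75, 6.99, 7.68, 8.21 and 8.13 with heme in the knockout and changed by -4.50 in wild type, an interaction of 4.50 ± 0.72 (adjusted p = 0.00622). The membrane-bound chemokine Cx3cl1 had an interaction of 3.44 ± 0.51 (adjusted p = 0.00409), endothelial lipase Lipg 4.18 ± 0.84 (adjusted p = 0.0281; lost without LPS array a, b, c or d or heme array c or e or wild-type LPS array a or b or wild-type heme array b or c, with adjusted p up to 0.0795) and the receptor Gpr34 3.62 ± 0.73 (adjusted p = 0.0294; lost without LPS array a or d or heme array c or e or wild-type LPS array b or c, with adjusted p up to 0.0885). Ccl9 rose in the knockout and fell by 0.68 in wild type (1.32 ± 0.23, adjusted p = 0.0121), and Mylip fell in the knockout with a change of 0.69 in wild type (-2.01 ± 0.38, adjusted p = 0.0202; lost without wild-type LPS array a or b or wild-type heme array b or c, with adjusted p up to 0.0622). Maf (1.47 ± 0.27, adjusted p = 0.0162; lost without wild-type LPS array b, with adjusted p up to 0.0559) and Hmox2 (0.78 ± 0.17, adjusted p = 0.0442; lost without LPS array a, b, c or d or heme array a, c or d or wild-type LPS array a, b or c or wild-type heme array a or c, with adjusted p up to 0.115) fell in both genotypes, by 2.55 and 1.42 in wild type. Cxcl5, a neutrophil chemokine, was at exactly 0 on all 4 knockout LPS arrays and at 0.00, 1.1, 1.03, 3.01 and 2.83 on the heme arrays, against 0.00, 2.86 and 4.62 with LPS and 8.73, 11.11 and 10.77 with heme in wild type (-6.11 ± 1.28, adjusted p = 0.0375; lost without LPS array a, b, c or d or heme array c or wild-type LPS array a or b or wild-type heme array b or c, with adjusted p up to 0.105). With the letter as a block over the 15 LPS-treated arrays, 105 negative interactions were called, and Nqo1 (adjusted p = 0.104), Edn1 (0.0692) and Ccl9 (0.0538) were no longer among those called. Without the arrays lettered a of the LPS-treated groups, Nos2 was not called (0.0851). Of the cytokines not called in the knockout, the interaction of Il12b was 3.38 ± 1.1 (adjusted p = 0.261), of Ifnb1 3.55 ± 0.96 (adjusted p = 0.127) and of Cxcl10 3.14 ± 1.61 (adjusted p = 0.708), so that for these a difference between the genotypes did not pass the test.

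**Figure D5:**
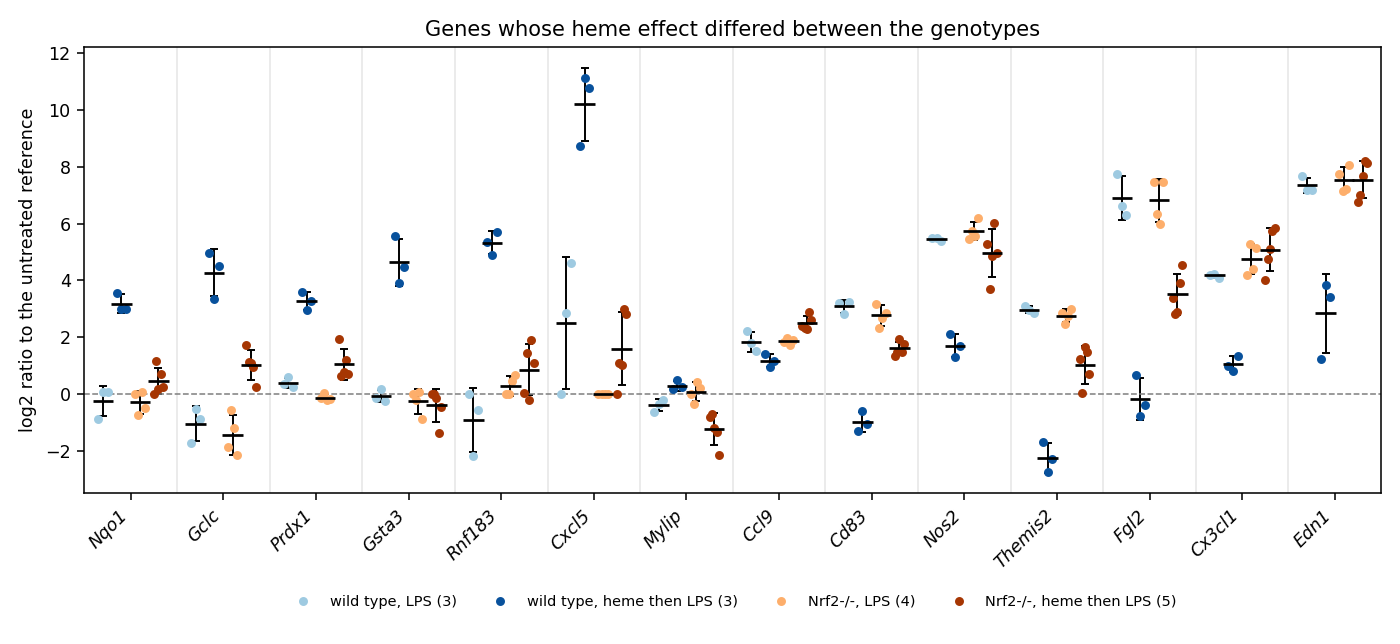
Log2 ratio to the untreated reference of 14 genes with a called interaction, on each wild-type array (blue, 3 with LPS and 3 with heme then LPS) and each Nrf2-/- array (orange, 4 and 5); bars give the mean and whiskers the SD. For Gsta3 and Rnf183 the 2 wild-type groups are far apart while the knockout groups overlap, and the same holds in the other direction for Nos2, Cx3cl1 and Edn1. The groups of Nqo1 are also far apart in wild type and overlap in the knockout through heme array a alone.

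Markers of other cell types that marrow cultures can hold were checked beside these changes. Of 15 neutrophil markers 1 was called higher, the granule protease Elane, at 0.04, -0.03, -0.02 and 0.35 with LPS and 0.93, 0.54, 0.74, 1.47 and 1.67 with heme before LPS (rise 0.98 ± 0.19, adjusted p = 0.0056), and the array medians were 0.00 to 0.35 and 0.00 to 0.61. Of 10 B cell, 15 T and NK cell, 10 erythroid and 11 mast cell and basophil markers 0 were called, with 1 lower B cell marker and 1 higher erythroid marker at an unadjusted p under 0.05. Their largest changes were -0.99 ± 0.34 for Blnk, 0.42 ± 0.28 for Cd3e, -0.34 ± 0.39 for Klf1 and 0.35 ± 0.28 for Gata2, none called. Of 11 dendritic cell markers 1 was called lower, the transcription factor Tcf4 (-1.23 ± 0.24, adjusted p = 0.00553), and of 12 stromal markers 1 higher, the actin Acta2 (1.13 ± 0.32, adjusted p = 0.0488; lost without LPS array a, b, c or d or heme array a, c, d or e, with adjusted p up to 0.166). The array medians of these 6 lists ran from -0.43 to 0.56 on the LPS arrays and from -0.55 to 1.90 on the heme arrays, the highest being the stromal markers on heme array e. Fcnb, Ms4a1, Klrd1, Ms4a2 and Postn were at 0 on all 9 knockout arrays. Among 17 macrophage markers 1 was called higher, the lysozyme Lyz1 (0.80 ± 0.20, lost without LPS array a or d or heme array d or e, with adjusted p up to 0.0903), whose probe can detect its close copy Lyz2, and 1 lower, Fcgr1. The part of such cells in the changes above was not tested.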

How the data were processed

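RNA of 18 macrophage samples (500 ng each) was hybridised to 2-colour Agilent arrays with the sample in Cy5 and untreated macrophages in Cy3, per the labels' protocols, and scanned images were read with Agilent Feature Extraction 10.5.1.1, per the submitters' processing notes. The deposited table holds 1 value per feature and array, taken here as the log10 ratio of sample to reference. The scale was inferred from the values and direction from the dyes; the sources used here do not state the background and dye correction, and no value of the deposited log10 table was missing. Values were multiplied by log2(10) to give the deposited ratios as log2. Of 44397 features 33026 had a gene symbol and 11371 without one were left out; 32438 of those with a symbol matched the reference table. Features of a gene were averaged, giving 22485 genes, 16347 of them from 1 probe, and 1303 genes were at exactly 0 on all knockout arrays. The 5 group means were estimated jointly from the 18 arrays by lmFit and eBayes of limma 3.58.1 (R 4.3.3), two-sided, with Benjamini-Hochberg adjustment over 22485 genes, after the scripts had been tested on simulated data. Tables and figures used Python 3.11.15, pandas 2.3.3 and matplotlib 3.10.9. The number of arrays limits the precision. The joint fit uses 1 spread per gene for all 5 groups, the wild-type albumin arrays included. For Hmox1 the SD of the albumin arrays was 0.037, against 0.199 to 0.684 in the other groups. For Klf1 it was 0.679, against 0.429 to 0.652. A smaller spread on the albumin arrays can lower the SE of contrasts that do not use them. Members, gene lists and tests were chosen with earlier results of these data known. The genes named are a list of central genes, the 10 largest called rises and falls without overlap, per list up to 3 called members and the largest change not called, and the 6 most positive and most negative called interactions among genes with a called heme effect. Those named after their values were seen are marked. Heme and LPS arrays of the same letter deviated together from their group means (r = 0.586, 0.23, 0.216 and 0.448 for a to d). The letters were therefore taken to pair the samples, but only in the fits with a block. The counts, SE and adjusted p of the main fit, also without single arrays, treat the groups as unpaired. In the table of such correlations heme b was closest to LPS c (0.363) and heme c to LPS b (0.324). Heme e, without an LPS array of its letter, was closest to LPS d (0.327). Whether the letters mark batches was not tested. The fit with the letter as a replicate block over the 9 knockout arrays called 170 genes higher and 139 lower. Alternatives were the arrays in the fit, normalization, centring, values of exactly 0, a filter on them, the median over probes, another spread, the replicate block, the arrays lettered a left out, each array left out in turn and the fold that picks genes. A replicate block in the knockout with the spread of all 18 arrays was added after seeing the data. Promoter sequences are from RefSeq, build GRCm38.p6.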

Additional observations from a re-analysis of the deposited data

Results flagged for a closer look

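In the knockout groups of 4 and 5 arrays, 25 values of named genes stood far from the other arrays of their group, with a gap above the critical value of Dixon's test. Chance sets about 1 in 20 groups apart in this way. With 193 named genes and 2 knockout groups for each, a number of this order can arise by chance. On a log2 ratio scale, the LPS arrays that stood apart were array a for Dnmt3l (-0.24), Ctss (0.67), Ch25h (4.67) and Abcc5 (0.28), array b for Pmvk (-1.16), Hmox2 (-0.46) and Tlr4 (-1.23), array c for Lypd6b (-0.10) and array d for Il1f9 (0.75). The heme arrays that stood apart were array a for Rpe (0.50), Hsf2 (2.12), Tlr6 (-0.11), Mvd (-1.87), P2ry13 (-3.26), Blnk (-2.57), Maf (-2.44) and Tab2 (0.72), array b for Axl (-0.85), Pfkfb3 (-0.23), Abca1 (-1.97) and Il1f9 (0.38) and array e for Ikbkg (1.08), Jun (-1.67), Tfe3 (-0.18) and Gata2 (1.75). Heme array a accounted for 8 of the 25 values and LPS array a for 4. For 30 named genes the heme effect differed between the genotypes by the interaction test. The difference in log2 units, knockout minus wild type, was negative for Nqo1 (-2.67), Gclc (-2.85), Cxcl5 (-6.11), Prdx1 (-1.70), Mylip (-2.01), Rnf183 (-5.66), Fam13a (-5.56), Gsta3 (-4.84), Ednrb (-4.70), Lypd6b (-4.0), Abcc1 (-1.54), Abcc5 (-0.74), Nck2 (-1.90), D16Ertd472e (-2.12), Il1f9 (-3.34) and Ppbp (-3.46). It was positive for Nos2 (2.96), Fgl2 (3.74), Cd83 (2.92), Ccl9 (1.32), Trim21 (2.07), Edn1 (4.50), Lipg (4.18), Gpr34 (3.62), Themis2 (3.47), Cx3cl1 (3.44), Hmox2 (0.78), Maf (1.47), Cebpd (2.43) and Cd300e (1.76). Among these 30 the interaction of 18 kept its call without each single array.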

How the results depend on the processing

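The main counts, from the unpaired fit, were 922 genes higher and 601 lower. A fit of the 9 knockout arrays alone called 507 and 245, and with the letter as a replicate block over these arrays 170 and 139. Leaving out 1 array gave 606 to 953 higher and 345 to 684 lower. Counts under the other alternatives stayed within 1.5 times the main count, such as 724 and 476 with quantile normalization, 891 and 680 with the block over 15 LPS-treated arrays, 1076 and 722 without the arrays lettered a, and 1097 and 810 with the added block that uses the spread of all 18 arrays. Median-centred arrays gave 732 higher and 667 lower. Of the interactions, 26 positive and 90 negative were called from the 15 LPS-treated arrays, 105 negative with the replicate block over them, and 85 positive without the arrays lettered a; leaving out 1 array gave 34 to 123 positive and 101 to 210 negative. Of the LPS-raised genes 49 were lower in the fit of 9 arrays, 87 with quantile normalization, 36 with the 9-array block, 73 to 150 when 1 array was left out and 298 when picked at 2-fold. Of the heme-raised genes 26 were higher with the 9-array block and 478 when picked at 2-fold. Among 130 named genes called in the knockout, 69 kept the call without each single array, and 47 under every alternative except the 9-array block, under which 101 lost it. The signs of 5 changes that were not called turned: Il12b (0.13 without the arrays lettered a; -0.55 to 0.082 when 1 array was left out, the sign turning without heme array a), Atf3 (0.13 with quantile normalization; -0.27 to 0.041, turning without heme array b or LPS array d), Fam13a (-0.27 with exact zeros missing; -0.37 to 0.44, turning without heme array a or c or LPS array d), Gsta3 (-0.34 to 0.11, turning without heme array d) and Il1f9 (-0.17 to 0.093, turning without LPS array d). Apart from the fewer arrays or residual degrees of freedom of some fits, the cause was not tested. Features at exactly 0 limit what can be read for weakly expressed genes. The interaction has no value in the fits of the 9 knockout arrays alone, for which the 15 LPS-treated arrays stand in. The interaction was not run with the added block. The knockout contrast was not fitted on the 15 LPS-treated arrays without a block. How many of its calls depend on the spread of the albumin arrays was therefore not tested.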
